A study of Mus musculus with 2 samples.

Results

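The 63 genes described here are the antioxidant and glutathione genes of the array together with BACH1 and its partners in their control. They were chosen by gene name, with earlier results of these data known. The families were the glutathione transferases (Gst), glutathione peroxidases (Gpx), peroxiredoxins (Prdx), thioredoxin-related genes (Txn) and superoxide dismutases (Sod). The single genes were Bach1, Nfe2l2, Keap1, Mafk, Nqo1, Gclc, Gclm, Gss, Gsr, Cat, G6pdx and Srxn1. The names matched 149 spots, 122 probes and 75 genes, and 104 probes of 63 genes were well above background in the same channel on both arrays, out of 16581 genes and transcripts measured that way. The other 12 genes, Gpx3, Gpx5, Gpx6, Gpx7, Gsta1, Gsta2, Gstm4, Gstm5, Nme8, Nxnl1, Sod3 and Txndc8, did not reach that level and are not described further.

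The study compared ETO2 siRNA with control siRNA in G1E-ER-GATA-1 cells, with both RNAs on the same array and 2 arrays in all. G1E is a mouse erythroid line of GATA-1-null genotype, and all cells of both groups carried a fusion of GATA-1 with the hormone-binding part of an oestrogen receptor and received β-estradiol for 24 h after transfection, which switches GATA-1 on and starts red cell maturation. ETO2, encoded by Cbfa2t3, is a corepressor that GATA-1 and its TAL1 partners recruit. ETO2 siRNA RNA carried Cy3 (green) and control siRNA RNA carried Cy5 (red) on both arrays, so a dye effect on a gene cannot be told apart from an effect of the siRNA. The labels do not say whether the 2 arrays came from separate transfections, so every p-value measures only the spread between these arrays. The comparison is of one cell line at one time.

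Cells keep their proteins and lipids reduced through a pair of NADPH-driven systems. Glutathione, made by Gclc, Gclm and Gss, serves the peroxidases and transferases and is returned to its reduced form by glutathione reductase (Gsr). Thioredoxin serves the peroxiredoxins and is kept reduced by thioredoxin reductase. Many genes of both systems carry antioxidant response elements, which NRF2 (Nfe2l2) activates and BACH1 represses, each paired with a small Maf protein such as MafK. KEAP1 holds NRF2 back by sending it for degradation, and haem releases BACH1 from DNA, which ties these genes to haemoglobin production in red cell precursors.

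Values below are channel signals and log2 ratios of ETO2 siRNA over control siRNA after normexp background correction and loess. Ratios are mean ± SD over the 2 arrays (n = 2). The channel signals were also normalized between arrays (Aquantile in limma), so their units follow the scanner's scale but are not raw readings. A gene is said to have risen or fallen when limma's test against 0 gave a Benjamini-Hochberg adjusted p under 0.05 over all 16581 genes. An exact sign permutation of 2 arrays cannot go below p = 0.5, so all tests lean on the spread that limma shares across genes, and the number of arrays limits their precision. A gene with several probes is given by its brightest one. In RNA from whole cultures, fewer cells of a kind and less RNA per cell cannot be told apart.

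Cbfa2t3 had 7600 and 7338 units in ETO2 siRNA cells, against 9954 and 10077 units in control siRNA cells, on arrays 1 and 2. Both ETO2 siRNA values lay below both control values. The log2 ratio was -0.42 ± 0.048, or 74.6% of control (adjusted p = 9.2e-05), and a second probe gave -0.23. Of 10 erythroid markers all 10 were well above background and the test called all 10 higher. Summed signals were 349083 units in ETO2 siRNA cells against 177352 units in control siRNA cells. Hba-a1 and Hbb-b1 had 90838 and 93291 units in ETO2 siRNA cells, against at least 44554 and 45111 units in control siRNA cells. They make up much of both sums. Both were saturated in control siRNA cells, so they have no direction here despite the call, and the control sum is a lower bound. One label calls the cells murine ES cells, but Pou5f1, Nanog, Zfp42, Sox2 and Dppa3 were not well above background and only Dppa5a and Esrrb were, at 260.8 units or less. Mast cell markers had 4 of 6 genes above background (summed signals 632.4 units in ETO2 siRNA cells, 549.4 units in control siRNA cells) with 2 higher, Mcpt1 and Mcpt4. Lymphocyte markers had 4 of 4 above background and 3 lower (summed signals 2520 units in ETO2 siRNA cells, 2941 units in control siRNA cells). Granulocyte and macrophage markers had 2 of 5 with a probe above background and fibroblast and endothelial markers 1 of 4, none called. The part of these marker shifts in the results below was not tested.

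The redox genes moved in both directions. Of the 63 genes, the test called 21 lower (33.3%, against 22.3% of all genes tested) and 15 higher (23.8%, against 18.4%), so that 57.1% were called against 40.7% of all genes. The median log2 ratio was -0.047 over the 63 genes and -0.018 over all genes. Changes were small: 32 of the 36 called genes changed by less than 1.5-fold, and the median SD between arrays was 0.068. A change of at least 1.2-fold on both arrays was seen downwards in 10 genes (15.9%, against 9.01% of all genes) and upwards in 7 genes (11.1%, against 7.36%). All 36 called genes had the same sign on both arrays, but the test itself favours such genes, so this is no separate support. For the counts of groups and lists below, the shares of all genes tested were 18.4% higher and 22.3% lower.

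The largest falls were in the reductases Txnrd1 and Gsr, with Srxn1, the peroxiredoxins Prdx1 and Prdx5, Txn1 and Txnip also lower, and the rises included Txnrd2, Cat and Prdx6. Gpx1, Gpx4, Prdx2 and Sod1, 4 genes with very bright probes, were saturated in the control channel on both arrays. In all, 39 and 11 spots were saturated in the ETO2 siRNA channel, against 471 and 495 in the control siRNA channel, on arrays 1 and 2. The control level of these 4 genes is therefore a lower bound, and no fold is given for them. Without these 4 genes, 12 of 59 were higher and 21 lower, with a median of -0.062. A like comparison left saturated probes out of all genes, so that a dimmer probe could stand for a gene. It called 21.3% of 61 redox genes higher and 36.1% lower, against 17.2% and 22.5% of all genes.

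The choice of scaling bears on all of the counts. With the scanner software's own processed signals in place of normexp and loess, 6 of the genes were higher and 6 lower, against 7.17% and 7.62% of all genes. When loess was replaced by median centring, all genes had a median of -0.31 and only 4.12% of all called genes were higher, against 45.2% after loess. Before that shift is taken off, 9 of the 15 genes called higher after loess lay below 0 under median centring. Relative to the median of all genes, Gstp1 alone of the 36 changed sides there, and Sod2 alone did so with the processed signals and the authors' deposited ratios.

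**Figure D1:**
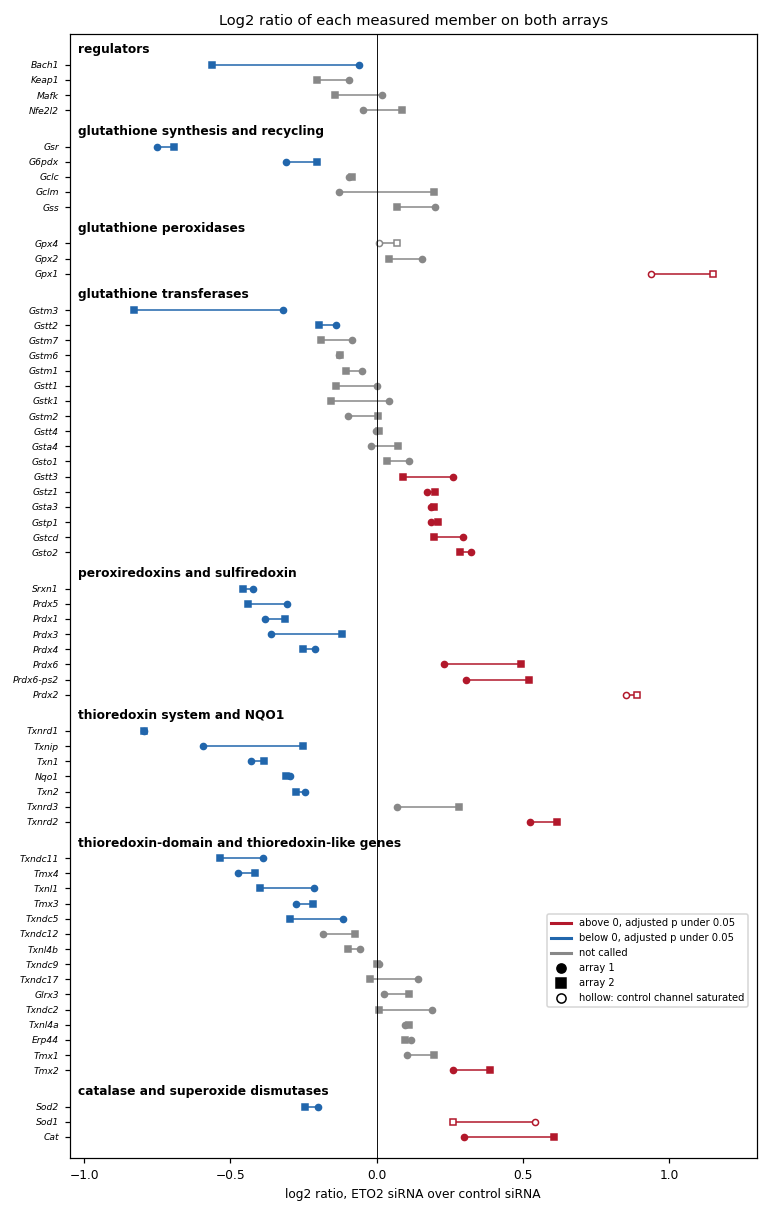
Log2 ratio (ETO2 siRNA over control siRNA, x axis) of 62 of the 63 genes (y axis, by role), with a circle for array 1 and a square for array 2 joined by a line, and hollow marks where the control channel was saturated on both arrays. The thioredoxin system lies mostly left of 0 with Txnrd2 to the right, the peroxiredoxins fall on both sides, and Bach1 and Gstm3 have the widest gaps between arrays. Under median centring, 9 of the 15 genes called higher lie below 0 before the shift of all genes is taken off.

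Of the 4 regulators, 1 fell and 3 did not pass the test. Bach1, the repressor, had 265 and 243 units in ETO2 siRNA cells, against 277 and 359 units in control siRNA cells. The ETO2 siRNA values lay below the control values on both arrays, but the ratio was -0.06 on array 1 and -0.56 on array 2. The mean was -0.31 ± 0.36 (80.5% of control; adjusted p = 0.013), so the fall rests on array 2. Its signal was low, as the dimmest probes called well above background had about 74.4 units in ETO2 siRNA cells and 72.6 units in control siRNA cells. The call was lost with the processed signals (-0.45; adjusted p = 0.12) and with an offset of 0 (-0.35; adjusted p = 0.066).

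Keap1, the adaptor that marks NRF2 for degradation, had 4424 and 3656 units in ETO2 siRNA cells, against 4729 and 4215 units in control siRNA cells. Its ratio of -0.15 ± 0.077 did not pass (adjusted p = 0.071). Nfe2l2, which encodes NRF2, had 12202 and 12901 units in ETO2 siRNA cells, against 12616 and 12154 units in control siRNA cells, and the groups overlapped. Its ratio was 0.02 ± 0.095 (adjusted p = 0.85), but the other 2 probes of the gene gave -0.30 and -0.19. The probe at -0.30 was nearly as bright, with 10906 and 11411 units in ETO2 siRNA cells, against 14605 and 12896 units in control siRNA cells. Mafk, the small Maf partner, had 1451 and 1548 units in ETO2 siRNA cells, against 1432 and 1709 units in control siRNA cells, with opposite signs on the arrays and a mean of -0.06 ± 0.11 (adjusted p = 0.48).

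Among the wider family of CNC factors, small Mafs and the KEAP1 ligase, 11 of 12 listed genes were measured. Of these, 2 rose and 4 fell, against 18.4% and 22.3% of all genes tested, while 5 stayed short of the threshold. Their median was -0.06. Nfe2, the erythroid CNC subunit, rose by 0.34 ± 0.036 (adjusted p = 5.4e-04) after loess, and lay at -0.27 under median centring before the shift of all genes is taken off. Nfe2l1, a related activator, was at -0.30 ± 0.083 (adjusted p = 0.0017), and Cul3, the scaffold of the ligase that KEAP1 serves, was at -0.27 ± 0.072 (adjusted p = 0.0032). Both had fallen.

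In glutathione synthesis and recycling, 2 of 5 genes fell and 3 did not pass. Gsr, which uses NADPH to return oxidized glutathione to its reduced form, had 1788 and 1873 units in ETO2 siRNA cells, against 3011 and 3027 units in control siRNA cells. The groups were far apart on both arrays. The ratio was -0.72 ± 0.042, or 60.6% of control (adjusted p = 5.9e-07), and its 2 other probes gave -0.40 and -0.44. G6pdx, the entry enzyme of the pentose phosphate pathway and a source of NADPH, fell by 0.26 on the log2 scale (adjusted p = 0.0046), a call lost with the processed signals. The synthesis enzymes Gclc (-0.09), Gclm (0.03) and Gss (0.13) did not pass.

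The glutathione peroxidases reduce peroxides at the expense of glutathione, and 2 of the 3 measured were saturated. Gpx1 had 89904 and 96964 units in ETO2 siRNA cells, against at least 46952 and 43658 units in control siRNA cells, and it was also saturated in the ETO2 siRNA channel on 1 array. Gpx4, which acts on lipid peroxides, had 46158 and 47594 units in ETO2 siRNA cells, against at least 45884 and 45400 units in control siRNA cells. Neither gene has a direction here, since its control level is only bounded, although the fit called Gpx1 (adjusted p = 3.5e-08). Gpx2 was at 0.10 and did not pass.

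Of the 17 glutathione transferases, 2 fell and 6 rose, while 9 stayed short of the threshold, and their median was 0.0036. These enzymes attach glutathione to reactive compounds. Gstm3, a mu-class transferase, had 221 and 218 units in ETO2 siRNA cells, against 276 and 387 units in control siRNA cells. Both ETO2 siRNA values lay below both control values, but the drop was uneven, at -0.32 on array 1 and -0.83 on array 2, with a mean of -0.58 ± 0.36 (67.1% of control; adjusted p = 1.7e-04). Gsto2, an omega-class transferase with dehydroascorbate reductase activity, had 192 and 214 units in ETO2 siRNA cells, against 154 and 175 units in control siRNA cells. The groups did not overlap, and the ratio was 0.30 ± 0.026 (1.23-fold; adjusted p = 0.0013). The signal of Gsto2 was low, and a dimmer probe that was not kept gave 0.09.

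The other called transferases changed less. Gstt2 was lower at -0.17, and Gstcd (0.25), the pi-class Gstp1 (0.20), the alpha-class Gsta3 (0.19), the zeta-class Gstz1 (0.19) and Gstt3 (0.17) were higher. Gsta3 and Gstt3 were dim, at 110 units or less in both channels, near the dimmest probes called well above background. Under median centring, Gstcd, Gstp1 and Gstz1 lay below 0 before the shift of all genes is taken off, and Gstp1 also after it. With the processed signals, the calls of Gstm3, Gstt2, Gstt3, Gstz1, Gstp1 and Gstcd were lost. Gstm7, Gstm6, Gstm1, Gstt1, Gstk1, Gstm2, Gstt4, Gsta4 and Gsto1 did not pass and ranged between -0.14 and 0.07. Transferases of a class are close in sequence, so probes of one may take up RNA of another, which was not tested. Probes of Gstm7 (-0.14 and 0.04) and Gstt4 (0.00 and -0.01) disagreed in sign.

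The thioredoxin system was lower in 5 of 7 genes and higher in 1, with a median of -0.30. Txnrd1, the cytosolic thioredoxin reductase, had 6762 and 5953 units in ETO2 siRNA cells, against 11737 and 10338 units in control siRNA cells. Every ETO2 siRNA value was far below every control value, and both arrays gave -0.80. The mean was -0.80 ± 0.00060, or 57.6% of control (adjusted p = 2.0e-07). Txnrd2, its mitochondrial counterpart, moved the other way, with 2434 and 2407 units in ETO2 siRNA cells, against 1691 and 1570 units in control siRNA cells. The groups did not overlap, and the ratio was 0.57 ± 0.064 (1.49-fold; adjusted p = 6.5e-06), with 0.43 and 0.24 on 2 further probes. A test of the difference between both reductases was not run.

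Txn1, the cytosolic thioredoxin, had 18414 and 17354 units in ETO2 siRNA cells, against 24794 and 22693 units in control siRNA cells. The groups were separate on both arrays, and the ratio was -0.41 ± 0.030 (75.4% of control; adjusted p = 1.2e-04). Txn2, the mitochondrial thioredoxin, was lower at -0.26 ± 0.023 (adjusted p = 0.0037), with -0.33 on a second probe. Both calls were lost with the processed signals.

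Txnip, which binds and inhibits thioredoxin, had 7078 and 10251 units in ETO2 siRNA cells, against 10675 and 12204 units in control siRNA cells. The ETO2 siRNA values lay below all control values, and array 1 showed the larger drop, -0.59 against -0.25. The mean was -0.42 ± 0.24 (74.6% of control; adjusted p = 4.9e-04), with -0.34 on a second probe. Nqo1, a quinone reductase and a familiar NRF2 target, had 1086 and 1029 units in ETO2 siRNA cells, against 1333 and 1276 units in control siRNA cells. It fell evenly, to 81.0% of control (-0.30 ± 0.011; adjusted p = 0.0012). Txnrd3, a thioredoxin and glutathione reductase, was at 0.18 and did not pass.

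All 9 genes of peroxiredoxins and sulfiredoxin were called, 5 lower and 4 above 0, of which Prdx2 was saturated. Srxn1, the sulfiredoxin that repairs overoxidized peroxiredoxins, had 3235 and 2894 units in ETO2 siRNA cells, against 4342 and 3972 units in control siRNA cells. No values overlapped, and the ratio was -0.44 ± 0.023 (73.7% of control; adjusted p = 6.0e-05), with -0.26 and -0.24 on its other probes. Prdx1, an abundant cytosolic peroxiredoxin, had 18229 and 18440 units in ETO2 siRNA cells, against 23729 and 22937 units in control siRNA cells. It was lower on both arrays, with a mean of -0.35 ± 0.046 (78.6% of control; adjusted p = 4.7e-04). Prdx5, found in mitochondria and peroxisomes, had 3474 and 3601 units in ETO2 siRNA cells, against 4300 and 4891 units in control siRNA cells. Its ratio was -0.37 ± 0.095 (77.1% of control; adjusted p = 3.3e-04).

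Mitochondrial Prdx3 (-0.24) and Prdx4 of the endoplasmic reticulum (-0.23) were also lower, but a second probe of Prdx4 gave 0.14. With the processed signals the calls of Prdx1, Prdx3, Prdx4 and Prdx5 were lost, while that of Srxn1 was not. Prdx1 stood at -0.03 there.

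Prdx6, a peroxiredoxin that draws on glutathione and also acts as a phospholipase, had 43232 and 57545 units in ETO2 siRNA cells, against 36880 and 40831 units in control siRNA cells. The ETO2 siRNA values lay above both control values, and the ratio was 0.36 ± 0.19 (1.29-fold; adjusted p = 9.2e-04), with 0.01, 0.19 and 0.13 on 3 dimmer probes. The pseudogene Prdx6-ps2 had 5794 and 7602 units in ETO2 siRNA cells, against 4691 and 5304 units in control siRNA cells, with a ratio of 0.41 ± 0.15 (1.33-fold; adjusted p = 2.4e-04). The pseudogene is a near-identical copy of Prdx6, so its signal may come from the same RNA and these values are not independent. Both calls were lost with the processed signals, and both genes lay below 0 under median centring before the shift of all genes is taken off. Prdx2, the main peroxiredoxin of red cells, was saturated in control siRNA cells, with 81793 and 84033 units in ETO2 siRNA cells, against at least 45309 and 45291 units in control siRNA cells. Its 2 unsaturated probes gave 0.30 and -0.12, and no direction is given.

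**Figure D2:**
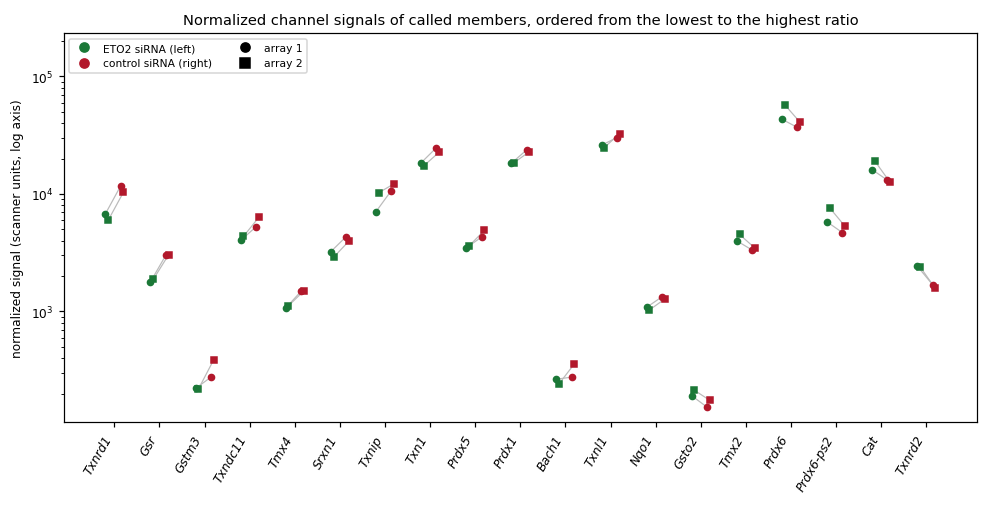
Normalized signal (y axis, scanner units on a log axis) of 19 called genes with a mean log2 ratio of at least 0.3 in size and no saturation on both arrays, with ETO2 siRNA in green on the left and control siRNA in red on the right of each gene, circles for array 1 and squares for array 2. Txnrd1 at the left falls to about the same extent on both arrays, whereas Bach1 falls mainly on array 2.

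The upstream sequences of Txnrd1, Srxn1 and Prdx1 are shown as examples, because BACH1 and NRF2 act through the antioxidant response element. These genes fell, and their RefSeq promoter windows held a match to the core of that element. The same was true of G6pdx, Tmx4, Txndc11 and Txndc5, which are not shown. Each sequence shown is the 250 bases before the transcription start on build GRCm38.p6, 5′ to 3′, from RefSeq. Capitals mark the core, TGACNNNGC or its reverse complement GCNNNGTCA, and the related AP-1 and small Maf core, TGACTCA or TGAGTCA.
Txnrd1, chr10:82858956-82859205, plus strand: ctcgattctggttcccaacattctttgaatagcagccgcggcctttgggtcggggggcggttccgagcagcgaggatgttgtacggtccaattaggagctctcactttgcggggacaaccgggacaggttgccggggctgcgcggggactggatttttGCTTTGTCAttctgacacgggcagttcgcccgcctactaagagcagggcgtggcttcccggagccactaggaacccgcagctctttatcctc
Srxn1, chr2:152105274-152105523, plus strand: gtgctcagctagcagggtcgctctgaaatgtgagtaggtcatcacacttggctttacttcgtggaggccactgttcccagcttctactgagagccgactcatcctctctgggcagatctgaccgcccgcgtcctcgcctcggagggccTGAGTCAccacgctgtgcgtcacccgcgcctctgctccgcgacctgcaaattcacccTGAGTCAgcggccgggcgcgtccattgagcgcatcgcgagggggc
Prdx1, chr4:116685349-116685598, plus strand: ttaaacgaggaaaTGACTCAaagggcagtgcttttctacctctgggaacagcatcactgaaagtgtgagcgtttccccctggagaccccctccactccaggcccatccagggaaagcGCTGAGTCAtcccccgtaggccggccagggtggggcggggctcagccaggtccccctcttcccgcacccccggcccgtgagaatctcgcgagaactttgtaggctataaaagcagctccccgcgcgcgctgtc
The Txnrd1 sequence belongs to 1 of 3 start sites listed, and the core begins at -92 from the start. In Prdx1 the core begins at -133 and overlaps a TGAGTCA, and a TGACTCA begins at -237. Srxn1 has TGAGTCA at -102 and -45, and its match to the longer core begins 28 bases after the start, outside the stretch shown.

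Windows of 250 bases before to 50 bases after a start were found for 53 of the 63 genes. On both strands, 15 of the 53 (28.3%) held the antioxidant response element core, against 14.0% of 27025 genes. By call they were 7 of 17 genes called lower (G6pdx, Prdx1, Srxn1, Tmx4, Txndc11, Txndc5 and Txnrd1), 2 of 12 genes called higher (Gsta3, and Sod1, whose saturated probe gives no direction) and 6 of 24 genes that did not pass. TGACTCA was in 7.55% of the 53, against 5.95% of all genes. The GATA cores AGATAA and TGATAA were in 9.43% and 3.77%, against 12.7% and 10.4%. These are matches of letters, not binding sites, and no test was made of the shares.

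Thioredoxin-domain and thioredoxin-like genes were less uniform, with 5 of 15 lower, 1 higher and 9 not passing, and a median of 0.0049. Genes are given by their current RefSeq names: Tmx1 to Tmx4, Erp44, Glrx3, Txnl4a and Txndc17 carried older Txndc or Txnl names on the array. Txndc11, a membrane protein with thioredoxin domains, had 4022 and 4351 units in ETO2 siRNA cells, against 5262 and 6307 units in control siRNA cells. The groups did not overlap, and the ratio was -0.46 ± 0.10 (72.6% of control; adjusted p = 5.9e-05), but its other probes gave -0.20 and 0.08. Tmx4, a transmembrane thioredoxin-like protein of the endoplasmic reticulum, had 1072 and 1120 units in ETO2 siRNA cells, against 1489 and 1495 units in control siRNA cells. It fell by a like amount on both arrays (-0.45 ± 0.041; 73.4% of control; adjusted p = 5.8e-05), and its other probes gave -0.22 and -0.15.

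Txnl1, a cytosolic thioredoxin-like protein bound to the proteasome, had 26010 and 24773 units in ETO2 siRNA cells, against 30152 and 32655 units in control siRNA cells. The ratio was -0.31 ± 0.13 (80.9% of control; adjusted p = 0.0020), while a second probe gave 0.15. Tmx2, another membrane-bound family member, had 3993 and 4526 units in ETO2 siRNA cells, against 3331 and 3462 units in control siRNA cells. It was higher on both arrays after loess (0.32 ± 0.089; 1.25-fold; adjusted p = 9.7e-04), with 0.32 on a second probe, and at -0.18 under median centring before the shift of all genes is taken off. Tmx3 (-0.25, with 0.08 and -0.13 on other probes) and Txndc5 (-0.20), both oxidoreductases of the endoplasmic reticulum, were lower. With the processed signals the calls of Txndc11, Txnl1, Tmx3, Txndc5 and Tmx2 were lost.

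The 9 genes of this group that did not pass were Txndc12, Txnl4b, Txndc9, Txndc17, Glrx3, Txndc2, Txnl4a, Erp44 and Tmx1, between -0.13 and 0.15. Several had probes that disagreed. Erp44, a chaperone of the secretory pathway, gave 0.11, 0.00 and -0.31. Txnl4a, a spliceosome component, gave 0.10, -0.18 and -0.17, Txnl4b gave -0.08 and 0.00, and Txndc9 gave 0.00, -0.28 and -0.25. A dimmer probe of Tmx1 gave 0.71 beside 0.15 for the brightest.

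Catalase and the superoxide dismutases remove hydrogen peroxide and superoxide. Cat had 16106 and 19054 units in ETO2 siRNA cells, against 13092 and 12525 units in control siRNA cells. Both ETO2 siRNA values were above both control values, with 0.30 on array 1 and 0.61 on array 2 (mean 0.45 ± 0.22; 1.37-fold; adjusted p = 2.2e-04). The ratio of Cat was -0.13 under median centring before the shift of all genes is taken off, and its call was lost with the processed signals. Sod2, the mitochondrial manganese enzyme, was lower at -0.22 ± 0.032 (adjusted p = 0.0097) after loess but at 0.036 with the processed signals. Sod1, the cytosolic copper and zinc enzyme, was saturated in control siRNA cells, with 66238 and 54674 units in ETO2 siRNA cells, against at least 45507 and 45630 units in control siRNA cells. Its unsaturated probes gave 0.04 and -0.18, and no direction is given.

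**Figure D3:**
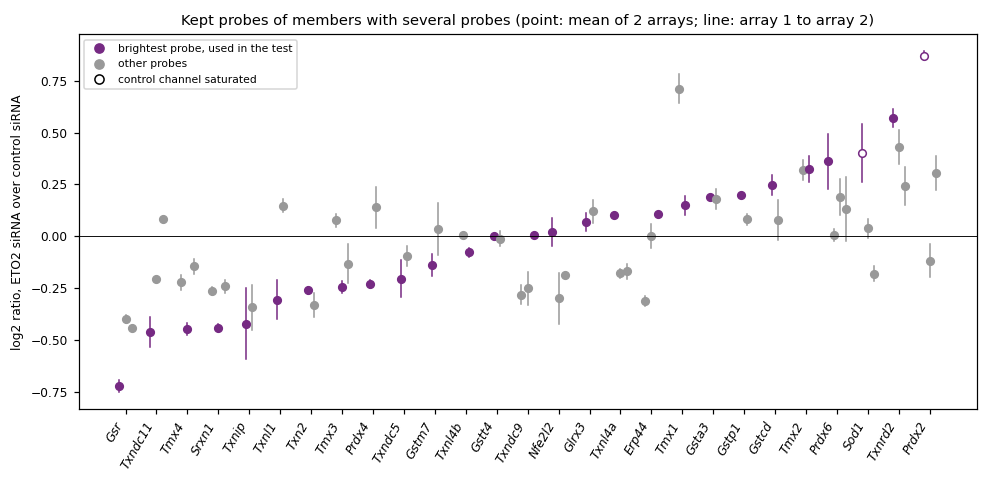
Log2 ratio (ETO2 siRNA over control siRNA, y axis) of every kept probe of the 27 genes with several such probes (x axis), with the brightest probe in purple, other probes in grey, points for the mean of 2 arrays, lines from array 1 to array 2, and hollow points where the control channel was saturated. In 13 of the 27 genes, probes fall on both sides of 0, among them Prdx4, Txndc11 and Txnl1, whereas all probes of Gsr, Srxn1, Tmx4 and Txnrd2 lie on one side.

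Of the 27 genes with several kept probes, 13 had probes of both signs, 6 of them called: Prdx2, Prdx4, Sod1, Tmx3, Txndc11 and Txnl1. The calls given for these genes are those of the brightest probe. In the other 14, including Gsr, Srxn1, Txnip, Txn2, Tmx4, Tmx2, Prdx6 and Txnrd2, all probes had one sign.

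Outside the named families, 22 of 25 listed haem, iron, NADPH and detoxification genes known as targets of NRF2 or BACH1 were measured. There were 4 higher and 8 lower, against 18.4% and 22.3% of all genes tested, and 10 not passing. The median was -0.04. Hmox1, which breaks down haem and is the best known BACH1 target, had 973 and 1167 units in ETO2 siRNA cells, against 1432 and 1581 units in control siRNA cells. It was lower on both arrays (-0.50 ± 0.084; 70.8% of control; adjusted p = 2.6e-05). Pgd, the second NADPH-producing enzyme of the pentose phosphate pathway, was at -0.65 ± 0.029 (adjusted p = 1.6e-06). Blvra, which reduces the biliverdin that haem breakdown leaves, was higher at 0.68 ± 0.016 (adjusted p = 1.0e-06). Fth1, the ferritin heavy chain, and Tkt, transketolase, were saturated in control siRNA cells and have no direction. Slc7a11, the cystine carrier that feeds glutathione synthesis, had 85 units in ETO2 siRNA cells on both arrays, against 81 and 75 units in control siRNA cells, and did not pass (0.12 ± 0.081; adjusted p = 0.14).

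Of 22 listed genes of glutathione turnover, glutaredoxins and microsomal transferases, 17 were measured. There were 6 higher and 3 lower, against 18.4% and 22.3% of all genes tested, and 8 not passing. The median was 0.03. Mgst3, a microsomal transferase, was at 0.47 ± 0.0078 (adjusted p = 3.1e-05) and Hagh, a glyoxalase, at 0.38 ± 0.038 (adjusted p = 2.2e-04) after loess. Both had risen, and under median centring they lay at -0.039 and -0.22 before the shift of all genes is taken off. Glrx2, a mitochondrial glutaredoxin, fell by 0.36 on the log2 scale (adjusted p = 3.3e-04). Glrx5, needed for iron-sulfur cluster assembly, was saturated in control siRNA cells and has no direction.

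Among 20 measured genes of other redox repair and oxidases, 3 rose and 1 fell, against 18.4% and 22.3% of all genes tested. The other 16 stayed short of the threshold, and the median of the 20 was 0.03. Cyb5r3, the cytochrome b5 reductase that keeps haemoglobin iron reduced, had 3387 and 4075 units in ETO2 siRNA cells, against 2002 and 2199 units in control siRNA cells. It rose on both arrays (0.82 ± 0.093; 1.77-fold; adjusted p = 2.0e-07). Ccs, the copper chaperone of Sod1, was at 0.32 ± 0.14 (adjusted p = 0.0016) and Prnp at 0.22 ± 0.078 (adjusted p = 0.011), and both lay below 0 under median centring before the shift of all genes is taken off.

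Across the 9 alternative ways of processing that were tested, 6 of the 21 lower calls were made every time: Gsr, Txnrd1, Srxn1, Txnip, Nqo1 and Tmx4. The share of all genes that kept their calls was not computed. Median centring called 65.2% of all genes lower and 2.80% higher, so it could hardly remove a lower call. The lower and higher calls therefore cannot be compared for firmness by these counts. Of the 15 higher calls, Gpx1 and Prdx2 were made every time they could be tested, and both are saturated. Txnrd2, Gsto2 and Gsta3 were called higher in all but median centring. Of these, Gsta3 was dim, at 110 units or less in both channels, and Gsto2 was low, at 214 units or less.

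**Figure D4:**
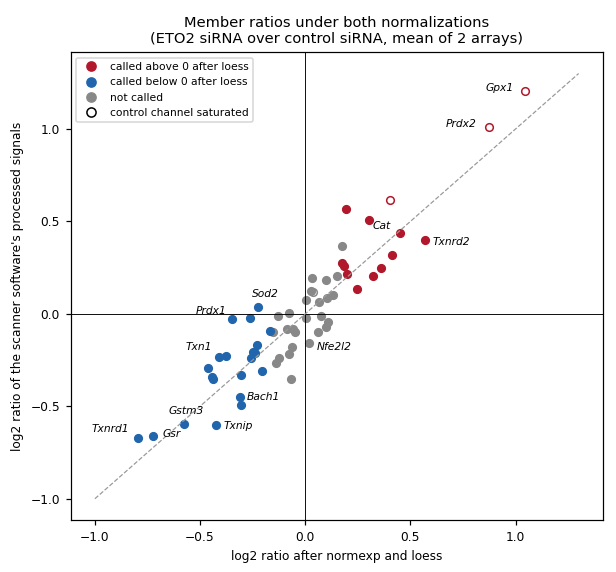
Mean log2 ratio (ETO2 siRNA over control siRNA) of 62 of the 63 genes after normexp and loess (x axis) and from the scanner software's processed signals (y axis), coloured by the call after loess, with the line of equality dashed and hollow points where the control channel was saturated. Txnrd1 and Gsr lie low on both axes and Txnrd2 high on both, whereas Prdx1 is near 0 and Sod2 above 0 on the y axis.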

How the data were processed

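Agilent Feature Extraction 9.1.3.1 wrote the deposited intensity of each spot and of its background, per the file headers, as linear values with no normalization. The processed intensity, background-subtracted and dye-normalized by that software, and the log10 ratio of red over green were deposited as well, per the file headers, and the authors' deposited ratio table holds the same log10 values. The build behind the probe design was not given in the sources used here.

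Spot means were corrected by normexp (offset 50) and loess within each array in limma 3.58.1 (R 4.3.3), with control spots at weight 0 and 10 and 4 outlier spots left out. Spots were averaged per probe, and 24426 of 41174 probes (59.3%) well above background in the same channel on both arrays were kept. Channel signals were then taken after Aquantile normalization between arrays, which leaves the ratios as they were. The brightest kept probe stood for a gene, which was tested with lmFit and eBayes (prior df 13.6, residual df 1) and Benjamini-Hochberg adjustment. Names were updated through RefSeq (GRCm38.p6): accessions settled 24375 probes, symbols 6301 and synonyms 2426, while 8072 retained the array's own name. Normexp, loess, spot averaging and the limma test were also run on simulated arrays. Filters, outlier flags, probe choice and names were taken there from the real arrays and were not tested.

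The genes and related lists were chosen with earlier results of these data known. Named with channel values were Cbfa2t3, the 4 regulators and called genes with a log2 ratio of at least 0.3 in size, and from each related list the 4 called genes with the largest change, plus Hmox1 and Slc7a11. Slc7a11 and Bach1 were named whatever their values. A few genes that these rules select are counted but not reported here by name.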

Additional observations from a re-analysis of the deposited data

How the results depend on the processing

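Every alternative was compared with normexp and loess. On the scanner software's processed signals, 1189 genes of all those tested were higher and 1264 lower, against 3050 and 3694, and 6 and 6 of the redox genes, against 15 and 21, with a median of -0.028. The authors' deposited ratios gave 1139 and 1216 genes, 6 and 6 redox genes, and a median of -0.028. Bach1 was no longer called with either (-0.45 in both, adjusted p 0.12 in both) or with an offset of 0 (-0.35, adjusted p = 0.066), and was called in the other 6 alternatives that were tested. Cbfa2t3 was called lower in all 9, between -0.98 and -0.32. Sod2 stood at 0.036 on the processed signals and the deposited ratios. The cause of these losses was not tested.

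Median centring gave 464 higher and 10809 lower genes, 2 and 46 redox genes and a median of -0.48, with the median of all genes at -0.31. Among the reported ratios called after loess or with median centring, those that changed sign with it, before that shift is taken off, were Nfe2l2 (-0.56), Gclm (-0.41), Gss (-0.30), Gpx4 (-0.61), Gpx2 (-0.23), Gsto1 (-0.41), Gstz1 (-0.29), Gstp1 (-0.37), Gstcd (-0.22), Prdx6 (-0.29), Prdx6-ps2 (-0.12), Txndc9 (-0.60), Txndc17 (-0.54), Glrx3 (-0.56), Txnl4a (-0.48), Erp44 (-0.40), Tmx1 (-0.41), Tmx2 (-0.18), Sod1 (-0.26), Cat (-0.13), Nfe2 (-0.27), Mgst3 (-0.039), Hagh (-0.22), Ccs (-0.24) and Prnp (-0.38). Txnrd3 (-0.13), Gsta4 (-0.13) and Gstt4 (-0.025), called under neither, also changed sign. Median centring takes a constant off the ratios of each array and makes no adjustment for signal brightness. Whether the ratios depended on brightness was not tested.

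The median of the redox genes was -0.047 as reported, -0.050 with an offset of 0, -0.024 without a filter on dim probes (then over all 75 genes matched, with -0.047 over the same 63), 0.0036 with both channels well above background, -0.062 without saturated probes and -0.057 with probes averaged. Leaving out saturated probes turned Sod1 to -0.18 and Tkt to -0.18, since a dimmer probe then stood for each gene, and averaging probes turned Txndc9 to -0.18, which was then called, and Nfe2l2 to -0.16 (adjusted p = 0.052), Txnl4a to -0.081, Erp44 to -0.068 and Gstt4 to just below 0, which were not. On single arrays, at 1.2-fold with no test, 1674 to 2098 of all genes were higher and 1982 to 2414 lower, with 9 to 10 and 14 redox genes and medians between -0.021 and -0.019. Loess with saturated spots at weight 0, an alternative chosen after seeing the data, gave 16 higher and 20 lower redox genes. Each array holds both conditions, so the test of its ratios against 0 already uses the pairing, and no further paired analysis was made. With 2 arrays and no dye swap, small ratios of dim or saturated probes are the least certain.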
